A study of Homo sapiens with 6 samples.

Results

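The transcripts described here are 10 of the 37879 targets on the array and encode the retinoblastoma pocket proteins (RB1, RBL1, RBL2), members of the E2F family of transcription factors (E2F1, E2F2, E2F3, E2F4, E2F6) and their dimerization partners (TFDP1, TFDP2). They were found by their gene symbols in the deposited table, where each symbol matched 1 target. RNA was recovered with the anti-FLAG antibody from HEK293T cells held in prometaphase with nocodazole (50 ng/ml, 15 h per the labels). In 3 control IPs the cells had received the empty vector, and in 3 Stau1 IPs they had received plasmids coding for Stau155-FLAG, a tagged form of the double-stranded RNA-binding protein Staufen1. The control IP arrays are called C1, C2 and C3 and the Stau1 IP arrays S1, S2 and S3, after their replicate numbers. All 6 samples thus share the cell line, the drug and the antibody, and differ by the plasmid. The comparison asks which transcripts come down with Stau1 from mitotic cells.

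Pocket proteins bind E2F factors and hold the genes of S phase entry silent until cyclin-dependent kinases phosphorylate them. E2F factors bind DNA as dimers with a DP protein, which TFDP1 and TFDP2 encode. E2F1, E2F2 and E2F3 are activators, E2F4 works mainly as a repressor with RBL1 (p107) and RBL2 (p130), and E2F6 represses without binding pocket proteins. HEK293T is an established human embryonic kidney line that was transformed with adenoviral DNA and carries the large T antigen of a polyomavirus. The oncoproteins of both viruses bind pocket proteins, which limits the line as a model of this pathway.

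The signal of a target is the mean brightness of its beads, without background subtraction. Detection was set at a detection p under 0.05, which 11635 to 13054 targets reached per array. The median of the negative controls, estimated from the 200 targets nearest a detection p of 0.5, lay between 77.6 and 89.6. Of the marker genes of the cell line, NEFL, NEFM, VIM, LIN28B, KRT8 and KRT18 were detected on all 6 arrays, PAX2 on 1 and SOX11 on none, and 5 of 6 markers of other cell types were detected on no array. STAU1 itself had signals of 2499, 3246 and 2758 for C1, C2 and C3, against 2845, 1857 and 3130 for S1, S2 and S3, so that its transcript did not separate the groups. On C1 STAU1 missed detection (detection p 0.0542) despite its signal, so a missed detection did not always mean a dim target. Among the 9884 targets with detection on every array, the array labelled control IP 2 correlated at 0.983 and 0.984 with Stau1 IP 1 and 3, and at 0.977 and 0.982 with control IP 1 and 3. The array labelled Stau1 IP 2 correlated at 0.940 and 0.943 with the other Stau1 IPs, and at 0.962 and 0.977 with control IP 1 and 3. Control IP 1 and 3 correlated at 0.983 with each other, and Stau1 IP 1 and 3 at 0.996. Stau1 IP 2 thus stood apart from its group, whereas control IP 2 correlated with its own group nearly as well as with Stau1 IP 1 and 3. The values of the 10 transcripts and of the named pathway genes are given with and without these arrays numbered 2. Nothing in the labels says whether the 3 samples of a group came from separate cultures, so p-values measure only the spread between these samples. The 6 arrays hold immunoprecipitated RNA only, so that a change in the amount of a transcript in the cells and a change in its recovery cannot be told apart from them alone. The study also hybridized total RNA of vector- and Stau155-FLAG-transfected prometaphase cells, which was not used here.

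By the labels, 0 of the 10 transcripts passed the cut used in the methods in either direction, which asks for more than 2.5-fold and for an unadjusted p under 0.05. Over all targets, limma called 0.00264% enriched and 0% depleted. No member passed an adjusted p of 0.05 either, which 0.00264% of all targets did. At an unadjusted p under 0.05 in limma, E2F1 and E2F4 were higher in the Stau1 IPs (2 of 10, against 3.94% of all targets), and TFDP1 and TFDP2 were lower (2 of 10, against 5.04%). The test named in the methods, used in place of limma, gave an unadjusted p under 0.05 for E2F1 and TFDP1. The share of all targets under that threshold was worked out for limma only. These calls therefore cannot be set beside a share of all targets. E2F1 was detected on 2 of 3 Stau1 IP arrays and on no control IP array. The log2 fold changes of 5 members were above 0 and those of 5 were below 0, with a median of -0.04 beside 0.003 over all targets.

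With both arrays numbered 2 left out, 2 control IPs stood against 2 Stau1 IPs. These arrays were singled out by their values in these same data. The p-values of this setting are therefore descriptive and not an independent test. At an unadjusted p under 0.05, 4 members were higher and 3 lower, against 8.55% and 8.95% of all targets. At an adjusted p under 0.05 in limma, E2F2 and E2F4 were higher and E2F6 was lower in the Stau1 IPs, while 3.59% of all targets were higher and 2.87% lower. None of these differences reached a fold of 2.5, and the largest was 1.77-fold. At that fold and an unadjusted p under 0.05, 0.623% of all targets were enriched and 0.0528% depleted.

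**Figure D1:**
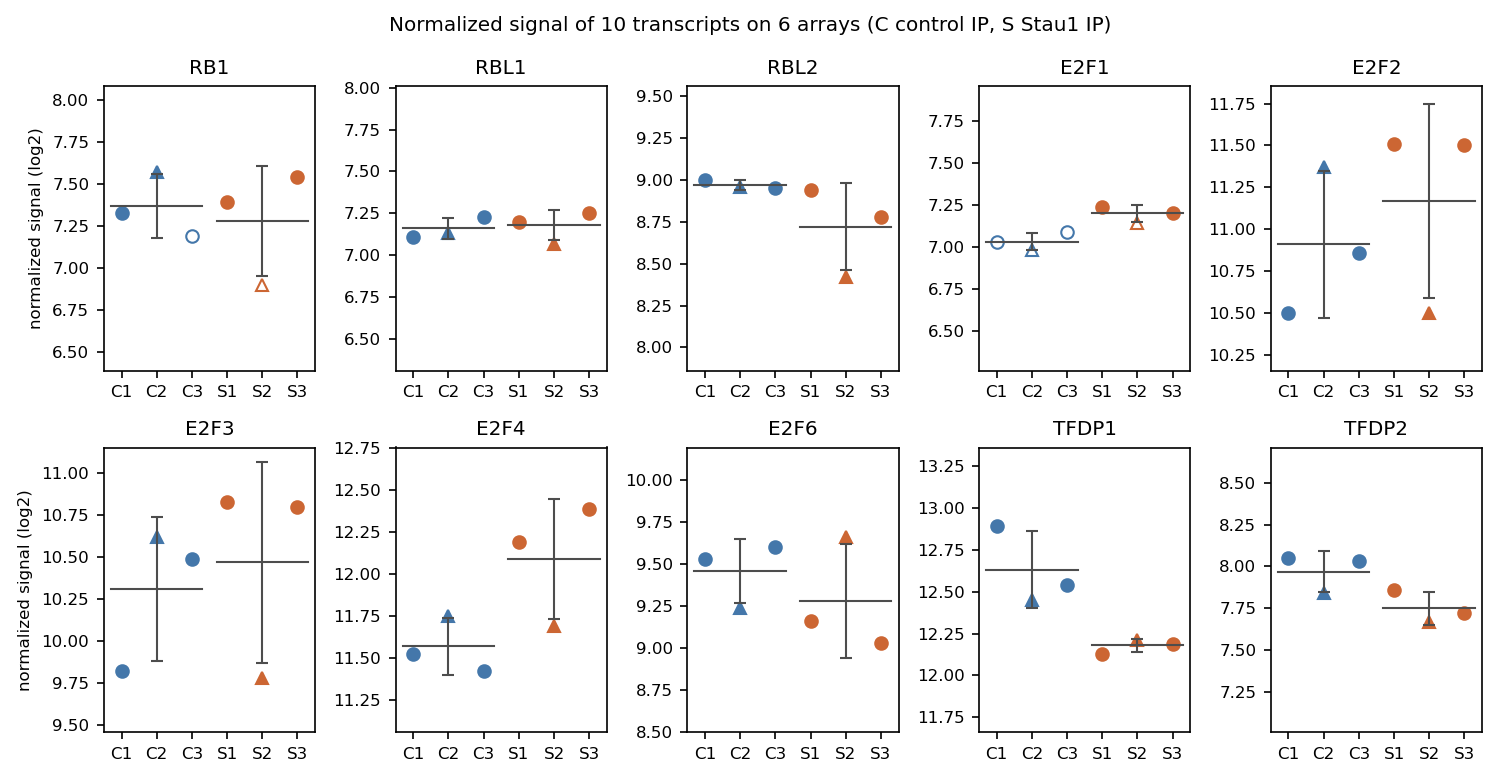
Normalized signal on the log2 scale (vertical axis, each panel spanning the same range) of the 10 transcripts on control IP arrays (C1 to C3, blue) and Stau1 IP arrays (S1 to S3, orange). Triangles mark the arrays numbered 2, open symbols arrays on which the target was not detected, and lines the mean with its SD (n = 3). For E2F2 and E2F3, C2 sits near S1 and S3, and S2 sits near C1, whereas for TFDP1 all Stau1 IP arrays lie below all control IP arrays.

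RB1, on chromosome 13, encodes the founding pocket protein and lay close to background. Its signal was 119, 179 and 104 for C1, C2 and C3, against 134, 87.2 and 168 for S1, S2 and S3. It reached detection on C1, C2, S1 and S3 and missed it on C3 and on S2, in the latter with a signal below the negative-control median. The highest value came from the array labelled control IP 2 and the lowest from the array labelled Stau1 IP 2, and the groups overlapped. The normalized log2 signal was 7.37 ± 0.19 across control IPs and 7.28 ± 0.33 across Stau1 IPs (SD, n = 3 each). The log2 fold change was -0.09, with a 95% interval from -0.56 to 0.39 (limma adjusted p = 0.950). Without the arrays numbered 2 it was 0.20 (95% interval -0.01 to 0.42, limma adjusted p = 0.322). The sign of RB1 thus turned with those arrays, and the bead error was 5.1 to 8.24 on the arrays where it was detected.

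RBL1, on chromosome 20, encodes p107 and was detected on all 6 arrays, although only just above the negative controls. Its signal was 97.8, 115 and 107 for C1, C2 and C3, against 111, 104 and 125 for S1, S2 and S3. These ranges overlapped. The log2 fold change was 0.02 by the labels (95% interval -0.13 to 0.16, limma adjusted p = 0.973) and 0.06 without the arrays numbered 2 (95% interval -0.10 to 0.22). At this brightness the log2 scale understates changes, so the narrow interval does not bound the change in the transcript itself.

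RBL2, on chromosome 16, encodes p130, the pocket protein typical of resting cells. Its signal was 439, 551 and 453 for C1, C2 and C3, against 500, 259 and 485 for S1, S2 and S3. The array labelled Stau1 IP 2 stood far below the others, and after normalization all Stau1 IP arrays lay below all control IP arrays. That gap was very small, with S1 at 8.94 and C3 at 8.95. Before normalization the signals of S1 and S3 were above those of C1 and C3. The mean was 8.97 ± 0.03 (log2) across control IPs and 8.72 ± 0.26 across Stau1 IPs (SD, n = 3 each), a log2 fold change of -0.26 (SE 0.13, limma adjusted p = 0.679). Left without these arrays, RBL2 stood at -0.12 (95% interval -0.30 to 0.07). RBL2 and TFDP1 were the 2 members whose Stau1 IP arrays all lay below the control IP arrays, which 7.79% of all targets showed, and E2F1 was the 1 member whose Stau1 IP arrays all lay above, which 6.76% showed.

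Among the activators, E2F1 on chromosome 20, the factor most closely tied to RB in the control of S phase entry, lay at the edge of detection. Its signal was 90.5, 97.5 and 93 for C1, C2 and C3, none of which was well above background, against 115, 110 and 119 for S1, S2 and S3. It was detected on 2 of 3 Stau1 IP arrays. All Stau1 IP values lay above all control IP values on the normalized scale, with measured means of 7.20 and 7.03. The difference was 1.12-fold (log2 fold change 0.16, 95% interval 0.05 to 0.27, limma adjusted p = 0.349). Raising the control IP values to the lowest detected signal left their mean at 7.03, so a lower bound drawn this way only restated the measured fold. S2 was not well above background either. Without the arrays numbered 2 the log2 fold change was 0.16 (SE 0.05, limma adjusted p = 0.176). Between 23 and 28 beads read E2F1 on each array, where a target was read by a median of 41, and the error between them was 4.02 to 8.88.

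E2F2, on chromosome 1, had a signal of 1327, 2952 and 1813 for C1, C2 and C3, against 2952, 1348 and 3207 for S1, S2 and S3. The arrays labelled control IP 2, Stau1 IP 1 and Stau1 IP 3 were high, those labelled control IP 1 and Stau1 IP 2 were low, and the groups overlapped. The bead error was 79.6 on control IP 2 and 27.6 on Stau1 IP 2, small beside the difference of these arrays. By the labels the mean was 10.91 ± 0.44 (log2) across control IPs and 11.17 ± 0.58 across Stau1 IPs (SD, n = 3 each). The log2 fold change was 0.26 (SE 0.36, 95% interval -0.63 to 1.14, limma adjusted p = 0.912), smaller than the spread within the groups. Without the arrays numbered 2, E2F2 was higher in the Stau1 IPs by a log2 fold change of 0.82 (SE 0.13, limma adjusted p = 0.0382), or 1.77-fold.

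E2F3, on chromosome 6, followed E2F2 from array to array. Its signal was 803, 1753 and 1392 for C1, C2 and C3, against 1868, 766 and 1998 for S1, S2 and S3. The lowest value again came from the array labelled Stau1 IP 2. By the labels its log2 fold change was 0.16 (SE 0.36, limma adjusted p = 0.953) and 0.66 without the arrays numbered 2 (SE 0.23, limma adjusted p = 0.250). Over the 6 arrays the normalized signals of E2F2 and E2F3 had a Pearson r of 0.96. It is given as a description, since both were read on the same arrays, those numbered 2 included.

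E2F4, on chromosome 16, encodes the E2F that carries most of the repression exerted through p107 and p130. Its signal was 2793, 3830 and 2704 for C1, C2 and C3, against 4627, 3306 and 5810 for S1, S2 and S3. The arrays labelled Stau1 IP 1 and 3 were the highest, and the arrays numbered 2 lay close to each other between the remaining ones. By the labels the mean was 11.57 ± 0.17 (log2) across control IPs and 12.09 ± 0.36 across Stau1 IPs (SD, n = 3 each), and the log2 fold change of 0.53 was the largest of the 10 (SE 0.20, limma adjusted p = 0.518). E2F4 was higher without the arrays numbered 2, by 0.82 (SE 0.09, 95% interval 0.59 to 1.05, limma adjusted p = 0.0173), or 1.76-fold.

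E2F6, on chromosome 2, a repressor found in Polycomb-type complexes, ran the other way. Its signal was 650, 673 and 735 for C1, C2 and C3, against 588, 699 and 580 for S1, S2 and S3. After normalization the arrays labelled Stau1 IP 1, Stau1 IP 3 and control IP 2 were the lowest, at 9.16, 9.03 and 9.24, and the array labelled Stau1 IP 2 was the highest, at 9.66. By the labels its log2 fold change was -0.17 (SE 0.19, limma adjusted p = 0.879). Without the arrays numbered 2, E2F6 was lower in the Stau1 IPs, with a log2 fold change of -0.47 (SE 0.07, limma adjusted p = 0.0314). The array also holds LOC139542 and LOC652869, predicted copies of E2F6, which were detected on no array, and whether their probes share signal with that of E2F6 was not tested.

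TFDP1, on chromosome 13, encodes the main partner of the E2F factors. Its signal was 7636, 6235 and 5910 for C1, C2 and C3, against 4454, 4825 and 5081 for S1, S2 and S3. Every Stau1 IP array lay below every control IP array, the arrays numbered 2 included. The mean was 12.63 ± 0.23 (log2) across control IPs and 12.18 ± 0.04 across Stau1 IPs (SD, n = 3 each). TFDP1 had a log2 fold change of -0.45 (SE 0.12, 95% interval -0.75 to -0.16), with a limma adjusted p = 0.339. TFDP1 stood at -0.56 without the arrays numbered 2 (SE 0.13, limma adjusted p = 0.1).

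TFDP2, on chromosome 3, encodes the other partner. Its signal was 213, 229 and 218 for C1, C2 and C3, against 211, 155 and 200 for S1, S2 and S3. After normalization the groups overlapped, since Stau1 IP 1 stood at 7.86 and control IP 2 at 7.84. The log2 fold change was -0.22 by the labels (SE 0.08, limma adjusted p = 0.5) and -0.25 without the arrays numbered 2 (SE 0.07, limma adjusted p = 0.136). TFDP1 and TFDP2 kept a negative value in every setting tried, while neither passed an adjusted p of 0.05 in any of them. The unadjusted p of TFDP2 rose above 0.05 in 8 of the 16 alternatives, among them the omission of C1, C3, S2 or S3, with log2 fold changes from -0.24 to -0.11.

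**Figure D2:**
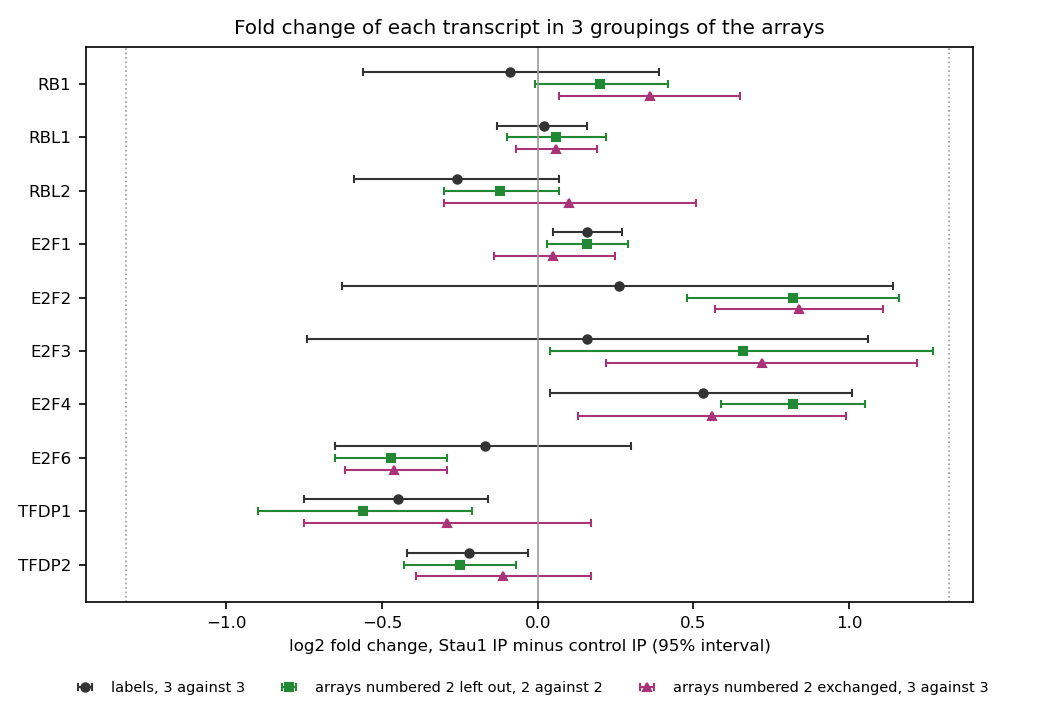
Log2 fold change of each transcript, Stau1 IP minus control IP (horizontal axis), with its 95% interval from limma, for the arrays as labelled, with the arrays numbered 2 left out, and with these exchanged between the groups. Dotted lines mark a fold of 2.5, which no value reaches, and the intervals of E2F2, E2F3 and E2F6 by the labels span 0.

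The arrays numbered 2 were then compared on their own. For each target, control IP 2 minus Stau1 IP 2 was set against the difference between Stau1 and control IPs on the arrays numbered 1 and 3, so that no array entered both. The signs were the same for 6 of the 10 transcripts, against 53.5% of all targets, and for 5 of the 8 detected on all 6 arrays, against 57.8% of such targets. They were the same for 74.2% of the 2448 targets that passed an adjusted p of 0.05 without the arrays numbered 2. For E2F2 the log2 differences were 0.82 on arrays 1 and 3 and 0.87 on the arrays numbered 2, and for E2F3 they were 0.66 and 0.84. For E2F6 they were -0.47 and -0.42. E2F4 stood at 0.82 and 0.06, so that its difference was nearly absent from the arrays numbered 2. RB1 had 0.20 and 0.67, and RBL1 had 0.06 on both. TFDP1 had -0.56 and 0.25, TFDP2 had -0.25 and 0.17, RBL2 had -0.12 and 0.54, and E2F1 had 0.16 and -0.17. Between S2 and C2, these 4 transcripts thus kept the direction seen on arrays 1 and 3, and the other 6 took the opposite one. E2F1 was detected on neither C2 nor S2, and RB1 was not detected on S2, so the signs of both rest on signals near background.

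With the arrays numbered 2 exchanged between the groups, a setting taken over from earlier results of these data, 0 of the 10 transcripts were enriched or depleted at a fold of 2.5, against 0.407% and 0.0211% of all targets. E2F2 passed an adjusted p of 0.05, with a log2 fold change of 0.84 (SE 0.11, limma adjusted p = 0.0430), while 0.718% of all targets were higher and 0.267% lower at that threshold. E2F6 had -0.46 (limma adjusted p = 0.0519), E2F3 had 0.72 (limma adjusted p = 0.184), E2F4 had 0.56 (limma adjusted p = 0.218) and RB1 had 0.36 (limma adjusted p = 0.246). The value of TFDP1 became -0.29 (95% interval -0.75 to 0.17). The p-values of this setting follow a regrouping drawn from the same values, so they too are descriptive. Which labels the arrays numbered 2 should carry cannot be told from the sample descriptions.

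**Figure D3:**
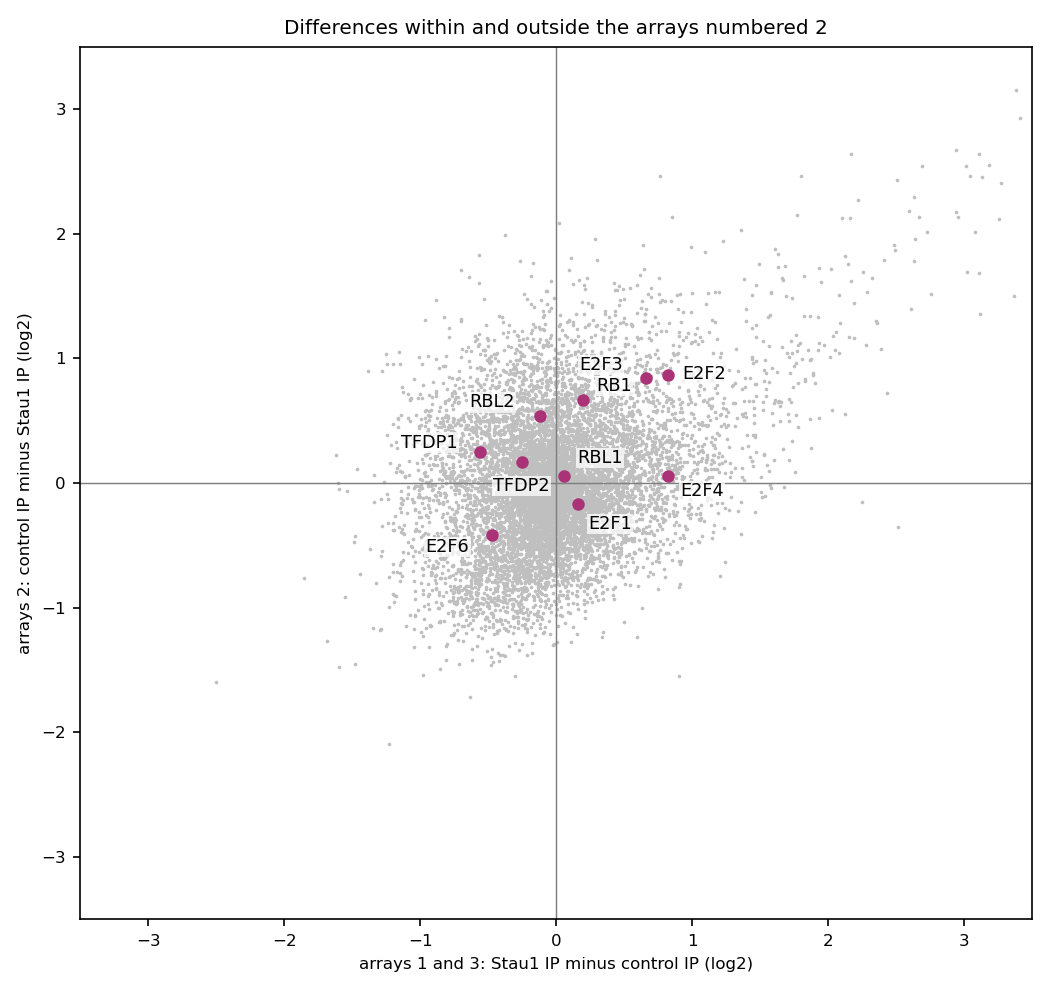
Each point is a target detected on all 6 arrays (grey) or one of the 10 transcripts (purple). The horizontal axis gives the log2 difference between Stau1 and control IPs on the arrays numbered 1 and 3, and the vertical axis control IP 2 minus Stau1 IP 2, with 1 grey point outside the axes. E2F2, E2F3, RB1 and E2F6 lie in the quadrants where both differences have the same sign, and TFDP1, TFDP2, RBL2 and E2F1 where they are opposed.

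Genes of the E2F family are themselves known targets of E2F factors, and the promoters of the 10 transcripts were searched for the letters of the E2F site to show which of them carry it. The windows of RefSeq (GRCh38.p14), from 250 bases before to 50 after the start of each gene, were found for all 10. Both strands were searched for TTTCCCGC, TTTCGCGC, TTTGCCGC and TTTGGCGC. A match was present in 4 of the 10 windows and in 3.31% of the 35116 windows of all genes. The matches are shown in capitals with their neighbouring bases, and those written as GCGGCAAA and GCGCGAAA are matches on the opposite strand. The 2 windows of RBL1 overlap, as do the 2 of E2F1.
RBL1, chr20:37096007-37096032, minus strand: gctgcagatTTTCGCGCgctttggcg
RBL1, chr20:37095997-37096022, minus strand: ttcgcgcgcTTTGGCGCaggtggttg
E2F1, chr20:33686402-33686427, minus strand: ggctctttcGCGGCAAAaaggatttg
E2F1, chr20:33686389-33686414, minus strand: caaaaaggaTTTGGCGCgtaaaagtg
E2F2, chr1:23531259-23531284, minus strand: ggcacgacgTTTGGCGCtaaaaaaaa
TFDP1, chr13:113584624-113584649, plus strand: gcgccgaagGCGCGAAAaggcgcgca
The 4 transcripts with a match, RBL1, E2F1, E2F2 and TFDP1, had log2 fold changes of 0.02, 0.16, 0.26 and -0.45 by the labels, on both sides of 0.

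The regulators and targets of the pathway were followed in 8 lists, of which 85 of 86 genes were on the array and 61 were detected on all 6 arrays. By the labels, 0 of the 85 were enriched or depleted at a fold of 2.5 or passed an adjusted p of 0.05 in limma, while 3 were higher and 12 were lower at an unadjusted p under 0.05, beside 3.94% and 5.04% of all targets. Some of the 12 lower genes were detected on few or no arrays, which did not always mean a dim target. CBX3 among them was detected on 2 arrays with signals of 454 to 1161. The median log2 fold change of the 85 was -0.03. Without the arrays numbered 2, 0 of the 85 passed a fold of 2.5. At an adjusted p under 0.05 in limma, 6 were higher and 5 lower, beside 3.59% and 2.87% of all targets.

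Of the 10 cyclins and kinases that phosphorylate pocket proteins, 1 was lower and 0 were higher at an unadjusted p under 0.05 by the labels. Over all targets, 5.04% were lower and 3.94% higher. The lower gene, CCNE2, was detected on no array. CDK4, the kinase partner of D-type cyclins, had a log2 fold change of 0.61 (SE 0.27, limma adjusted p = 0.615), and CCND3, a D-type cyclin, one of 0.41 (SE 0.37, limma adjusted p = 0.844). They had 0.94 and 0.91 without the arrays numbered 2 (limma adjusted p = 0.0914 and 0.168). The signal of CDK4 was 3880, 6297 and 6013 for C1, C2 and C3, against 9363, 5639 and 9567 for S1, S2 and S3. As for E2F4, the arrays labelled Stau1 IP 1 and 3 were the highest. Of the 7 CDK inhibitors, 0 passed an unadjusted p of 0.05 by the labels. CDKN1A, which encodes p21, had 0.59 (SE 0.27, limma adjusted p = 0.617) and CDKN1B, which encodes p27, had -0.25 (SE 0.25, limma adjusted p = 0.865). These values were 0.69 and 0.08 without the arrays numbered 2, so that the sign of CDKN1B turned. At an adjusted p under 0.05 without those arrays, 1 inhibitor was higher and 0 lower (all targets 3.59% and 2.87%). It was CDKN1C, with 0.39 (limma adjusted p = 0.0213). At an unadjusted p under 0.05, 1 of the 3 catalytic subunits of PP1 was lower and 0 higher (all targets 5.04% and 3.94%). PP1 is the phosphatase that restores RB at the exit from mitosis. PPP1CB had -0.41 (SE 0.15, limma adjusted p = 0.513) and PPP1CC had -0.28 (SE 0.25, limma adjusted p = 0.841). Leaving out the arrays numbered 2 gave -0.19 and 0.04, and the sign of PPP1CC turned.

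At an unadjusted p under 0.05, 2 of the 7 measured partners of the DREAM and MuvB complexes were lower and 0 higher (all targets 5.04% and 3.94%). These complexes join p130, E2F4 and DP proteins on cell cycle promoters. RBBP4, a histone-binding subunit, had -0.46 (SE 0.13, limma adjusted p = 0.385), and without the arrays numbered 2 it was lower in the Stau1 IPs by a log2 fold change of -0.63 (SE 0.10, limma adjusted p = 0.0394). FOXM1, the mitotic transcription factor that joins MuvB in G2, had -0.14 (SE 0.36, limma adjusted p = 0.960) by the labels and -0.68 (SE 0.12, limma adjusted p = 0.0516) without those arrays. Of the 15 corepressors of pocket proteins, 4 were lower and 0 higher at an unadjusted p under 0.05 (all targets 5.04% and 3.94%). Of these 4, RBBP8 was detected on no array and SMARCA2 on 1. The others were RBBP7 with -0.56 (SE 0.19, limma adjusted p = 0.484) and the deacetylase HDAC2 with -0.38 (SE 0.14, limma adjusted p = 0.526). Both stayed below 0 without the arrays numbered 2, at -0.76 and -0.25 (limma adjusted p = 0.067 and 0.42). At an adjusted p under 0.05 without those arrays, 2 corepressors were lower and 1 higher (all targets 2.87% and 3.59%). HDAC1 had -0.44 and RBBP8 had -0.49 (limma adjusted p = 0.0245 and 0.0383), and SAP30 had 0.65 (limma adjusted p = 0.0451). Of the 13 partners of E2F6, 1 was lower and 0 higher at an unadjusted p under 0.05 (all targets 5.04% and 3.94%). The lower gene, CBX3, was detected on 2 arrays, although its signals of 454 to 1161 lay well above the negative-control medians. RING1, a Polycomb ubiquitin ligase, had 0.23 (SE 0.11) by the labels and 0.33 without the arrays numbered 2, and PCGF6 turned from -0.17 (SE 0.29) to 0.16. WDR5, a histone-binding subunit named after its values had been seen, had 0.68 (SE 0.32, limma adjusted p = 0.643) and was higher without those arrays, with 1.21 (SE 0.06, limma adjusted p = 0.00638). E2F7, an atypical repressor, had -0.27 (SE 0.17) and, without those arrays, -0.08, and E2F8 and TFDP3 were detected on no array.

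Of the 28 target genes of E2F that serve entry into S phase, 3 were higher and 3 lower at an unadjusted p under 0.05 by the labels. Over all targets, 3.94% were higher and 5.04% lower. The median log2 fold change of the 28 was 0.03. TK1, the thymidine kinase, had signals of 2057, 3446 and 2599 for C1, C2 and C3, against 5385, 3953 and 5759 for S1, S2 and S3. All its Stau1 IP arrays lay above all control IP arrays, and the log2 fold change was 0.89 (SE 0.18, limma adjusted p = 0.250). TOP2A, the topoisomerase that peaks in G2 and mitosis, had -0.70 (SE 0.33, limma adjusted p = 0.638) by the labels and -0.17 (limma adjusted p = 0.335) without the arrays numbered 2. At an adjusted p under 0.05 without the arrays numbered 2, 3 of the 28 were higher (all targets 3.59%) and 2 lower (all targets 2.87%). Among them, TK1 and CHEK1 were higher, with log2 fold changes of 1.16 and 0.71 (limma adjusted p = 0.0127 and 0.00917), and PCNA and EZH2 were lower, with -0.71 and -0.51 (limma adjusted p = 0.0192 and 0.0157). CHEK1, PCNA and EZH2 are named after their values had been seen. Beside these lists, 8 genes of the prometaphase state were followed. By the labels, 3 were lower at an unadjusted p under 0.05 (all targets 5.04%). Without the arrays numbered 2, 5 were lower at an adjusted p under 0.05 (all targets 2.87%). BUB1, a checkpoint kinase, had -0.82 and -0.83 (limma adjusted p = 0.205 and 0.0122), and CENPF, a kinetochore protein, had -0.63 and -0.57 (limma adjusted p = 0.137 and 0.02). What part the state of the cells has in the values of the members was not tested.

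**Figure D4:**
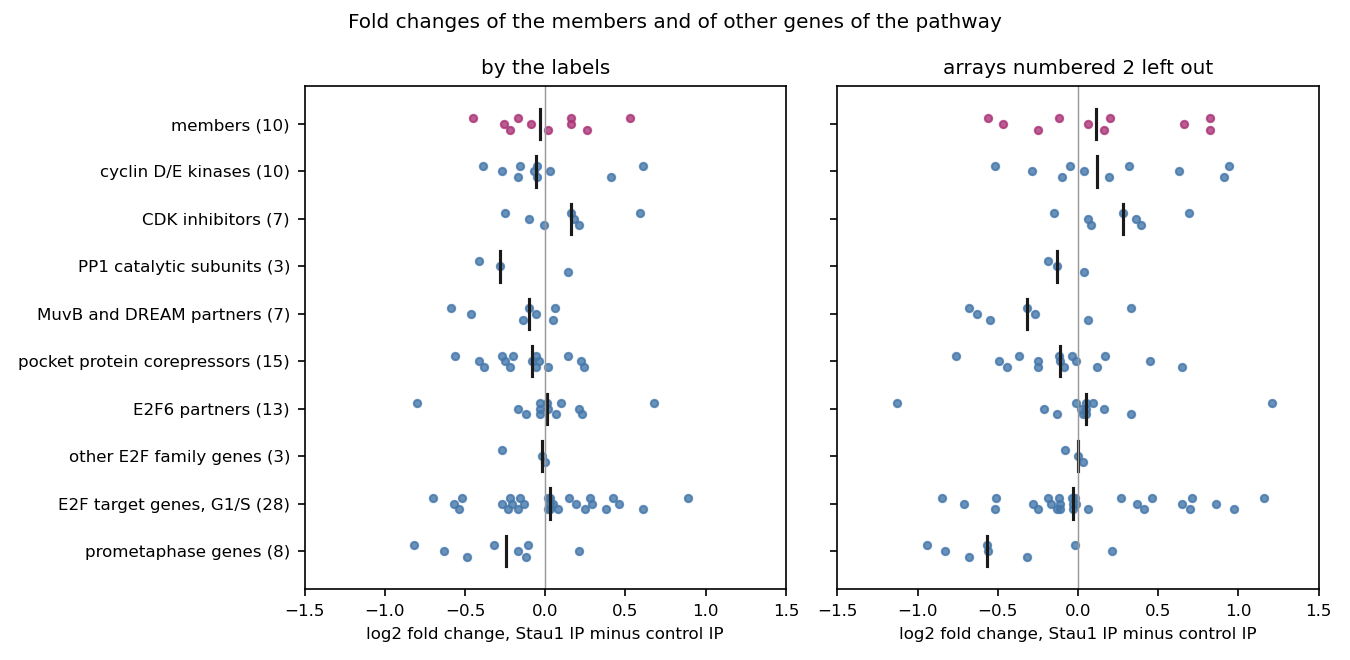
Log2 fold changes, Stau1 IP minus control IP (horizontal axes), of the 10 members and of the genes of each list (number measured in brackets), by the labels and with the arrays numbered 2 left out. Each point is a gene and the bar is the median of its list. By the labels the points of the members lie between -0.45 and 0.53.

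For the 8 members detected on all 6 arrays, the targets with the most similar pattern over the 6 normalized signals were sought among 9443 others. E2F2 was most like LOC650276, a predicted copy of ribosomal protein L7, and ZBTB4, a zinc finger gene, at a Pearson r of 0.997 each, and 7.11% of the targets exceeded 0.9. E2F3 was most like CTDSP2 at 0.991 and LOXL4 at 0.990. E2F4 was most like FJX1 at 0.997 and LOC91461 at 0.995. E2F6 was most like SULF2 at 0.998 and DCTN3 at 0.993, and 7.29% of the targets exceeded 0.9. TFDP1 was most like PDE1A and MRPL1, at 0.997 each, and TFDP2 was most like VPS26 at 0.996 and MRPL15 at 0.984. RBL2 was most like the histone gene H2AFZ at 0.993 and LOC728564 at 0.992, and RBL1 was most like GATAD2B at 0.992 and SLC36A1 at 0.981. The share above 0.9 was lowest for RBL1, at 0.625%, and was 1.99% for TFDP2. These values describe the 6 arrays. Among the members themselves, E2F2 and E2F6 had the most opposed patterns (r = -0.93), and TFDP1 and TFDP2 were alike (r = 0.81).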

How the data were processed

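The authors hybridized cRNA to Illumina HumanWG-6 BeadChips and deposited, per the file headers, the signal intensity of each target without normalization, with the probes of a target combined. Deposited beside it were a bead error, a bead number and the detection p-value, a rank against negative controls.

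The chain named in the methods was rebuilt with limma 3.58.1 and mgcv 1.9.3 under R 4.3.3. Background, the median over the 200 targets nearest a detection p of 0.5, was subtracted. A variance stabilizing transformation to log2 was fitted to the bead SD over 500 bins, without the lowest 33.3% of signals. Robust spline normalization used 10 knots. This form was kept from earlier work, in which several forms were run and their results, set beside tables of the study, had been seen. Near background this scale understates changes. Groups came from the sample labels, and lmFit and eBayes were fitted on all 37879 targets with Benjamini-Hochberg adjustment. The steps were tested on simulated data with large changes of bright targets. That test does not cover small changes or targets near background. Plots came from matplotlib 3.10.9 (Python 3.11.15).

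The members, lists and alternatives were chosen with earlier results of these data known. Named genes are the members, STAU1 and the 2 targets most like each member. Of each list they are the genes past the threshold, or else the 2 detected on all arrays with the largest fold change. CCNE2, RBBP8, SMARCA2 and CBX3 are named after their values had been seen, to give their detection. HDAC1, SAP30 and CDKN1C are likewise named after their values had been seen. The alternatives were neqc, another form of the transformation, quantile normalization, median centring, no background subtraction, a detection filter, the methods' t-test, the replicate number as a block, leaving out arrays, and exchanging the arrays numbered 2. The number of arrays limits the precision.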

Additional observations from a re-analysis of the deposited data

How the results depend on the processing

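In all 16 alternatives, 0 of the 10 transcripts and 0 of the 85 pathway genes were enriched or depleted at a fold of 2.5, and no alternative other than leaving out or exchanging both arrays numbered 2 gave a member an adjusted p under 0.05 in limma or the methods' t-test. The median log2 fold change of the members moved from -0.04 to 0.11 with both arrays numbered 2 left out, and lay between -0.10 and 0.08 when single arrays were left out. RB1 turned to 0.20 with both arrays left out and to 0.36 with them exchanged, and RBL2 to 0.10 with them exchanged. When single arrays were left out, RB1 ranged from -0.22 to 0.10, RBL1 from -0.02 to 0.07 and E2F3 from -0.09 to 0.50, so that their signs turned. E2F2 ranged from 0.05 to 0.59, E2F6 from -0.36 (without S2, unadjusted p under 0.05) to -0.05 and RBL2 from -0.37 (without S1, unadjusted p under 0.05) to -0.11, all in limma. The unadjusted call of E2F4 was lost under neqc with a log2 fold change of 0.68, median centring with 0.43, the methods' t-test and the block with 0.53 each, and without C1, C3, S1 or S3 with 0.38 to 0.51. That of TFDP2 was lost under median centring, the filter, the methods' t-test, the exchange, and without C1, C3, S2 or S3, and that of E2F1 and TFDP1 only with the exchange, among the settings in which they were tested. E2F1 left the fit under the filter on detection, for which it was too dim. The cause was not tested.

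Arrays that share a replicate number deviated from their groups with correlations of -0.45, -0.78 and -0.38. The group means include the arrays numbered 2. If these resemble the other group, such correlations turn negative by construction, so they cannot show whether replicates were paired. With the replicate block, 0 members passed an adjusted p of 0.05 and the log2 fold change of E2F4 stayed at 0.53 (limma adjusted p = 0.888).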
